A study of Mus musculus with 4 samples.

Results

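The scaffold genes of the postsynaptic density were followed in hippocampal transcriptomes of mice with and without a tibial fracture. The 9 genes, taken by their symbols, were Dlg2, Dlg3, Dlg4, Shank1, Shank2, Shank3, Homer1, Dlgap1 and Nlgn1, out of 29300 genes in the table. Both groups were male C57BL/6 mice aged 7 to 8 months without a transgene, and both received isoflurane and tramadol. The 2 control mice had this anesthesia and analgesia only (labelled sham), and the 2 mice modelling perioperative neurocognitive disorder (PND mice, labelled surgery) also had an open fracture of the tibia fixed with an intramedullary nail. Whole hippocampus was taken on day 1, and poly(A) RNA was sequenced. The comparison thus sets fracture and nailing under anesthesia against anesthesia alone.

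The postsynaptic density is the protein mesh under the membrane of excitatory synapses. In its upper layer, the Dlg proteins (membrane-associated guanylate kinases, among them PSD-95, the product of Dlg4) hold glutamate receptors and the adhesion protein neuroligin 1 by their PDZ domains. The Dlgap proteins join the Dlg layer to the Shank proteins, and Homer ties Shank to group I metabotropic glutamate receptors and to calcium channels of the endoplasmic reticulum. In the hippocampus the amount and kind of these scaffolds set how many receptors a synapse holds during learning.

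Members of a family share stretches of identical protein that are written in different bases, and the 9 transcripts differed widely in base composition. The following stretches are shown because the changes described below followed the GC content of whole transcripts, and they show how far composition differs where the protein does not. They were cut from coding exons of the GENCODE M21 transcript with the longest coding sequence (mm10), 5′ to 3′ in the direction of the gene, and capitals mark a G or C at the last position of a codon. The first set encodes the same 24 amino acids in the 3 Homer genes.
Homer1 at chr13:93346590-93346661 on the plus strand: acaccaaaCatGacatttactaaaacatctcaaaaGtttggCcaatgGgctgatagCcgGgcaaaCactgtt
Homer2 at chr7:81636400-81636471 on the minus strand: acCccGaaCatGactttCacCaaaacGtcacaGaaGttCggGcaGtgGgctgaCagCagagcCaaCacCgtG
Homer3 at chr8:70285952-70286023 on the plus strand: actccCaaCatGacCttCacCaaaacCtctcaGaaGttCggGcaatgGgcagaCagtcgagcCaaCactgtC
Homer1 ended 8 of its 24 codons in G or C, Homer2 19 and Homer3 16, and Homer1 differed from Homer2 at 17 of the 72 bases.

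The second set encodes the same 19 amino acids in the 3 Dlg genes studied.
Dlg2 at chr7:92088590-92088646 on the plus strand: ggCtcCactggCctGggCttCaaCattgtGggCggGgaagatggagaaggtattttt
Dlg3 at chrX:100775835-100775891 on the plus strand: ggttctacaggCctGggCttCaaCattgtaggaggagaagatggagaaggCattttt
Dlg4 at chr11:70039190-70039246 on the plus strand: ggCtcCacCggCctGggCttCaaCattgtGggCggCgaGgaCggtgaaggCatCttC
Dlg4 ended 16 of these 19 codons in G or C, against 10 in Dlg2 and 6 in Dlg3. All 8 differences between Dlg2 and Dlg4 lay at the last position of a codon.

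The third set encodes the same 30 amino acids in the 3 neuroligin genes, joined over 2 exons.
Nlgn1 at chr3:25434454-25435935 on the minus strand: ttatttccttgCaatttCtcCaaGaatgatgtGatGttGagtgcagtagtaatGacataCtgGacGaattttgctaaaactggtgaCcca
Nlgn2 at chr11:69826073-69826826 on the minus strand: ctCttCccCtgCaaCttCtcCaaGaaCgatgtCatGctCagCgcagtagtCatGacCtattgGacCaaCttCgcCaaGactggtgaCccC
Nlgn3 at chrX:101318636-101319425 on the plus strand: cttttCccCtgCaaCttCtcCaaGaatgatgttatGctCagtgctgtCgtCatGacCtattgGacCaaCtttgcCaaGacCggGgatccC
Nlgn1 ended 12 of the 30 codons in G or C, Nlgn2 24 and Nlgn3 21.

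The last set encodes the same 22 amino acids in the 3 Shank genes.
Shank1 at chr7:44342425-44342490 on the plus strand: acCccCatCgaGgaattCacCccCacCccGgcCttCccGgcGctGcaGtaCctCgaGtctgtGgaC
Shank2 at chr7:144286647-144286712 on the plus strand: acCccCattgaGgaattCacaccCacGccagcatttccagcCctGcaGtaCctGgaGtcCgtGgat
Shank3 at chr15:89532100-89532165 on the plus strand: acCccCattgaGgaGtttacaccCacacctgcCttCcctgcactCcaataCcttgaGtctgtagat
Here Shank1 ended 20 of 22 codons in G or C, Shank2 14 and Shank3 10, an order opposite to that of the whole coding sequences, in which 65.7%, 68.4% and 70.2% of codons ended so. A short stretch therefore does not stand for its transcript. Over whole transcripts, the GC content was 37.8% in Homer1, 38.9% in Nlgn1, 44.3% in Dlg2, 52.0% in Dlg3, 53.7% in Dlgap1, 55.0% in Shank2, 55.7% in Dlg4, 61.4% in Shank1 and 62.4% in Shank3. Much of the low GC content of Homer1 and Nlgn1 lay outside the coding sequence, since noncoding bases made up 74.1% of the Homer1 transcript and 78.6% of the Nlgn1 transcript.

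The libraries held 15763432 to 18573386 counts, with 24238 to 25324 genes detected. Markers of hippocampal excitatory neurons were present in every library, with summed levels of 788 to 842 CPM (counts scaled to a common library total) in control mice and 715 to 790 in PND mice. Markers of choroid plexus, a neighbouring tissue, summed to 126 CPM in control mouse 1, 5390 in control mouse 2, 2020 in PND mouse 1 and 3430 in PND mouse 2, and so differed widely within both groups. Mitochondrial transcripts other than rRNA took 2.82% and 2.53% of counts in control mice and 4.45% and 4.49% in PND mice. All levels below are CPM scaled by the trimmed mean of M values (TMM) unless given per length. Adjusted p-values come from the quasi-likelihood test of edgeR over 17144 genes, adjusted by Benjamini and Hochberg's procedure. In bulk tissue, fewer cells of a type and less RNA per cell cannot be told apart.

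All 9 genes passed the filter on low counts. Homer1 rose in PND mice, Dlg4, Shank1 and Shank3 fell, and Dlg2, Dlg3, Shank2, Dlgap1 and Nlgn1 did not pass the test at an adjusted p of 0.05. Of all genes tested, 13.1% rose and 12.8% fell, so 1 riser among 9 was near the background and 3 fallers were above it, on a small number of genes. Under the study's own fold limits (at least 1.5 or at most 0.67), which 6.75% of genes passed upward and 2.25% downward, Homer1 remained and the 3 fallers did not, because each of them fell by less. In 3 of the 9 genes the PND mice both lay above the control mice, in 5 both lay below, and in 1 (Nlgn1) the groups overlapped. Over all genes tested these shares were 33.2% above and 32.2% below. The median log2 fold change of the 9 genes was -0.11, against 0.01 over all genes tested, and lay at -0.055 without control mouse 1, -0.068 without PND mouse 2 and -0.16 without PND mouse 1.

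**Figure D1:**
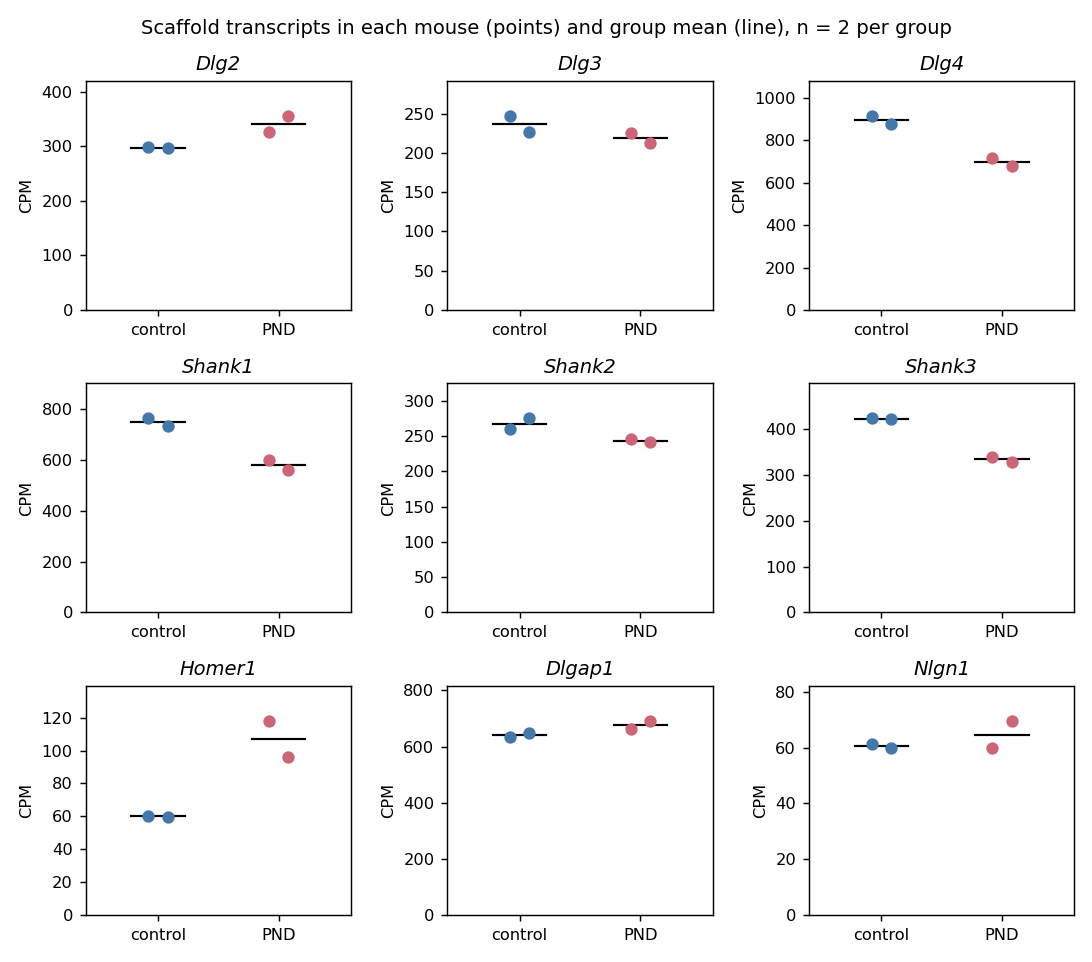
CPM (vertical axis, from 0) of the 9 scaffold genes in each mouse, with control mice in blue, PND mice in red and a line at the group mean (n = 2 per group). Homer1 stood at 118 and 96.0 in PND mice against 60.4 and 59.5 in control mice, Dlg4, Shank1 and Shank3 stood lower in both PND mice, and only Nlgn1 had overlapping groups.

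Among the Dlg genes, Dlg4 (ENSMUSG00000020886, chr11:70017085-70045532, plus strand), which encodes PSD-95, was the most abundant. Its level was 915 and 877 CPM in the control mice and 718 and 680 CPM in the PND mice. Both PND mice lay below both control mice, and the mean fell from 896 ± 27.2 to 699 ± 27.1 (SD, n = 2), a log2 fold change of -0.36 ± 0.06 (SE, adjusted p = 0.0091). The fall held when any 1 mouse was left out, at log2 fold changes of -0.41 to -0.31. It did not pass with a correction for GC content (-0.21, adjusted p = 0.16).

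Dlg2 (ENSMUSG00000052572, chr7:91090706-92449247, plus strand) encodes PSD-93, a scaffold that overlaps with PSD-95 in holding NMDA receptors. It moved the other way, at 298 and 296 CPM in control mice and 327 and 356 CPM in PND mice. The groups did not overlap, yet the log2 fold change of 0.20 ± 0.06 missed the threshold (adjusted p = 0.065). Under 4 other settings it passed, with adjusted p from 0.036 to 0.05 as rounded, and under 4 that take out a trend with transcript length or GC content it reversed, to as low as -0.17.

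A second row of the table with the symbol Dlg2 (ENSMUSG00000108872, chr7:90476672-90522791) is a processed transcript with 28 to 42 counts per mouse, and it was not counted as a member. Dlg3 (ENSMUSG00000000881, chrX:100767722-100818410, plus strand) encodes SAP102, a scaffold prominent at young synapses. Dlg3 had 247 and 226 CPM in control mice and 225 and 213 CPM in PND mice, a log2 fold change of -0.11 ± 0.07 (adjusted p = 0.27), and its nearest values in the 2 groups lay almost together.

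Dlgap1 (ENSMUSG00000003279, chr17:69969073-70821413, plus strand) encodes the link between the Dlg and Shank layers. Its level was 634 and 648 CPM in control mice and 664 and 691 CPM in PND mice. PND mice were slightly higher without overlap, but the log2 fold change of 0.08 ± 0.06 did not pass (adjusted p = 0.34).

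The Shank genes encode the deep layer of the scaffold. Shank1 (ENSMUSG00000038738, chr7:44310253-44360572, plus strand) had 762 and 732 CPM in control mice and 599 and 558 CPM in PND mice. Both PND mice were lower, with a log2 fold change of -0.37 ± 0.06 (adjusted p = 0.0092). Shank3 (ENSMUSG00000022623, chr15:89499623-89560261, plus strand), the gene affected in Phelan-McDermid syndrome, had 423 and 421 CPM in control mice and 339 and 328 CPM in PND mice. It fell by nearly as much, at -0.34 ± 0.06 on the log2 scale (adjusted p = 0.008), and the gap between groups was wider than the spread within either. Shank2 (ENSMUSG00000037541, chr7:144001928-144424494, plus strand) had 259 and 275 CPM in control mice and 245 and 241 CPM in PND mice. PND mice were lower without overlap, but the log2 fold change of -0.14 ± 0.06 did not pass (adjusted p = 0.14).

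For Shank1 and Shank3 the call held without any 1 mouse (largest adjusted p 0.026 and 0.029) and was lost with a correction for GC content (adjusted p = 0.48 and 0.66). Exons of Shank1 overlap those of the antisense gene 1700008O03Rik by 339 bases and exons of Shank3 those of Gm15609 by 271 bases. The use of strand in the counting is not stated in the sources used here, so reads from these stretches cannot be assigned to one of the genes. The same limit holds for 92 bases of Dlgap1 exons opposite AC079441.1. Exons of Dlg2 share 225 bases on the same strand with Gm45131 and Gm45159, which no use of strand separates.

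Homer1 (ENSMUSG00000007617, chr13:93299635-93405129, plus strand) encodes the adaptor that ties Shank to metabotropic glutamate receptors. It was among the least abundant members in control mice, at 60.4 and 59.5 CPM, and reached 118 and 96.0 CPM in PND mice. The mean rose from 59.9 ± 0.64 to 107 ± 15.6 (SD, n = 2), a fold change of 1.79 and a log2 fold change of 0.84 ± 0.11 (SE, adjusted p = 0.005). The 2 PND mice differed from each other far more than the 2 control mice did, and without PND mouse 1 the log2 fold change was smallest, at 0.66, and without PND mouse 2 it was largest, at 0.98. With a correction for GC content the value was 0.02 (adjusted p = 0.95). Homer1 makes long constitutive forms and a short form, Homer1a, which neurons induce with activity and which uncouples the long forms. Counts per gene do not separate these forms.

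As a reference for Homer1a, 13 other activity-induced genes were read. By edgeR none of the 13 rose or fell, none had an unadjusted p under 0.05, and DESeq2 called 0. Of all genes tested, 13.1% rose and 12.8% fell. Arc, an immediate early gene of the synapse, had 127 and 114 CPM in control mice and 159 and 63.3 CPM in PND mice. The 2 PND mice lay on either side of the control mice, and the log2 fold change had a standard error of 0.37. Summed over the 13 genes, levels were 646 and 615 CPM in control mice and 692 and 454 CPM in PND mice. With the PND mice this far apart, a missing call does not show that these genes were unchanged.

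Nlgn1 (ENSMUSG00000063887, chr3:25426215-26332460, minus strand) encodes the postsynaptic adhesion protein of excitatory synapses that binds presynaptic neurexins. Its level was 61.2 and 60.02 CPM in control mice and 59.7 and 69.6 CPM in PND mice. PND mouse 1 lay just under the control mice and PND mouse 2 above them, with a log2 fold change of 0.09 ± 0.09 (adjusted p = 0.50). Without PND mouse 2 the log2 fold change was -0.017. With a correction for GC content it was -0.63, a call as lower (adjusted p = 0.026). Exons of Nlgn1 overlap those of the antisense gene A830092H15Rik by 1229 bases, with the same limit as for Shank1.

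Per length, as CPM per kilobase of transcript (RPKM), the mean level in control mice ran from 263 for Dlg4 and 136 for Dlgap1 through 76.0 for Shank1, 57.3 for Shank3, 47.8 for Dlg3, 38.1 for Dlg2 and 29.7 for Shank2 down to 14.0 for Homer1 and 5.14 for Nlgn1. No neighbours in this order overlapped between the control mice. The order of the means was the same in PND mice, from 205 for Dlg4 and 144 for Dlgap1 to 25.0 for Homer1 and 5.47 for Nlgn1, but some steps narrowed. Shank3 had 46.0 and 44.5 RPKM in the PND mice, Dlg3 45.4 and 42.9 and Dlg2 41.8 and 45.5, so these neighbours overlapped. Shank2, at 27.3 and 26.8 RPKM, overlapped with Homer1, at 27.5 and 22.4.

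Ratios of counts within a library need no scaling between libraries. The ratio of Dlg2 to Dlg4 was 0.326 and 0.338 in control mice and 0.454 and 0.523 in PND mice. The ratio of these receptor-holding scaffolds was higher in both PND mice, by 0.55 on the log2 scale. Homer1 over Shank3, its binding partner, was 0.143 and 0.141 in control mice and 0.349 and 0.293 in PND mice. This ratio was higher in both PND mice by 1.17 on the log2 scale. Shank3 over Shank1, the 2 genes that fell, was 0.555 and 0.575 in control mice and 0.565 and 0.588 in PND mice, with overlapping groups. An exact permutation test of 2 against 2 mice cannot give a two-sided p below 0.333, so the ratios are given as a description. Scaling cancels in a ratio but a trend with GC content does not. With the length and GC trend taken out, as described below, the log2 fold changes of Dlg2 and Dlg4 stood close together at -0.16 and -0.21, and those of Homer1 and Shank3 at 0.02 and -0.05.

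Of the 8 paralogs that complete the families, 2 rose and 4 fell, against 13.1% and 12.8% of all genes tested. Homer2 rose, with 69.4 and 75.5 CPM in control mice and 101 and 88.9 CPM in PND mice (log2 fold change 0.39 ± 0.09, adjusted p = 0.022). Homer3 fell from 39.9 and 37.9 CPM to 30.1 and 27.8 CPM (-0.42 ± 0.09, adjusted p = 0.019). The Homer family thus held genes that moved in opposite directions in this fit. With the length and GC trend taken out, as described below, none of the 8 paralogs was called.

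In the neuroligin family, Nlgn2, the isoform of inhibitory synapses, fell from 405 and 421 CPM to 287 and 313 CPM (log2 fold change -0.46 ± 0.07, adjusted p = 0.0061). Nlgn3, found at both kinds of synapse, rose from 35.6 and 30.6 CPM to 43.1 and 44.1 CPM (0.40 ± 0.10, adjusted p = 0.031). Nlgn1 lay between them and did not pass. With the length and GC trend taken out, as described below, edgeR called Nlgn1 lower (-0.62, adjusted p = 0.029) and neither Nlgn2 nor Nlgn3.

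Dlgap3 fell by 0.45 ± 0.07 on the log2 scale (adjusted p = 0.0069) and Dlgap4 by 0.27 ± 0.06 (adjusted p = 0.017), both without overlap of the groups. Dlgap2 had a log2 fold change of -0.17 ± 0.08 (adjusted p = 0.16) and Dlg1, which encodes SAP97, one of 0.19 ± 0.06 (adjusted p = 0.077), and neither passed.

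As shares of the length-scaled reads of its family, Dlg4 took 71.0% and 71.0% in control mice and 65.5% and 63.7% in PND mice, while Dlg2 took 10.1% and 10.5%, then 13.0% and 14.5%. Homer1 took 19.3% and 18.4% in control mice and 27.1% and 25.4% in PND mice, and Homer3 went from 22.4% and 20.5% to 12.1% and 12.9%. Dlgap1 took 42.0% and 42.2%, then 48.3% and 50.5%. In each of these shares the groups lay apart. In the Shank family, Shank2 went from 17.6% and 18.9% to 20.3% and 20.9% and Shank1 from 47.3% and 45.9% to 45.4% and 44.3%, without overlap. Shank3 had 35.0% and 35.2% in control mice and 34.2% and 34.7% in PND mice. Like the ratios, these shares still carry the trend with GC content. With the length and GC trend taken out, Dlg2, Dlg3 and Dlg4 had log2 fold changes of -0.16, -0.095 and -0.21, and Homer1 one of 0.02.

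**Figure D2:**
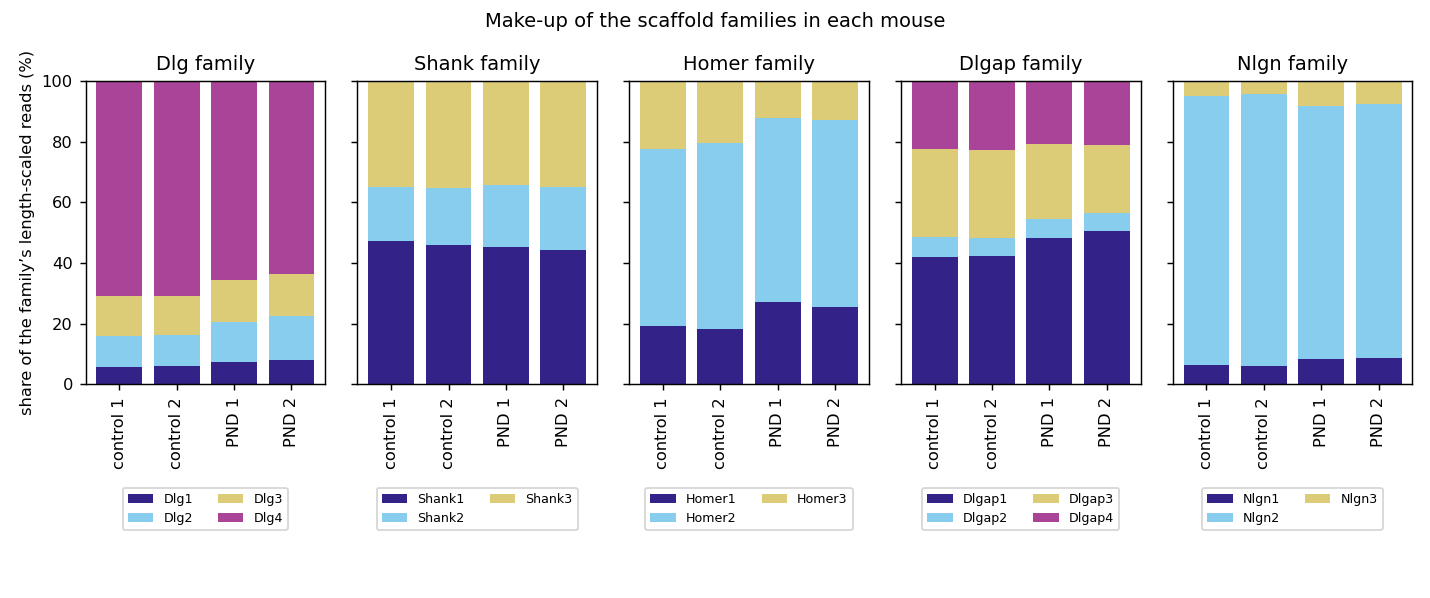
Share of each family's length-scaled reads (vertical axis, percent) taken by its genes in each mouse, one bar per mouse and one panel per family. Dlg4 gave way to the other Dlg genes (71.0% and 71.0% against 65.5% and 63.7%), Homer1 gained on Homer3, and Shank2 went from 17.6% and 18.9% to 20.3% and 20.9%. The shares are not corrected for the trend with GC content.

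The fold changes of the scaffold genes followed the GC content of their transcripts, and so did those of all genes. Genes tested were divided into eighths by transcript GC content. In the lowest eighth (28.7 to 42.5%), which holds Homer1 and Nlgn1, 50.2% of genes rose and 0.374% fell, with a median log2 fold change of 0.60. Homer1 lay above this median, and Nlgn1, at 0.09, lay below the 10th percentile of its eighth, 0.13. In the second eighth, which holds Dlg2, the median was 0.30.

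In the seventh eighth, which holds Dlg4 and Shank2, 0.841% of genes rose and 27.8% fell, with a median of -0.26. In the highest eighth (57.6 to 78.3%), which holds Shank1 and Shank3, 0.421% rose and 38.1% fell, with a median of -0.34, close to the values of both Shank genes. Between mice of one group the medians of the eighths differed by -0.10 to 0.06. Over the 9 scaffold genes, Pearson's r between log2 fold change and transcript GC content was -0.85 and Spearman's rho -0.92, as a description of 9 genes measured in the same 4 libraries. With the GC content of the coding sequence they were -0.76 and -0.77, and with that of last codon positions -0.68 and -0.57. With transcript length they were -0.20 and -0.08.

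**Figure D3:**
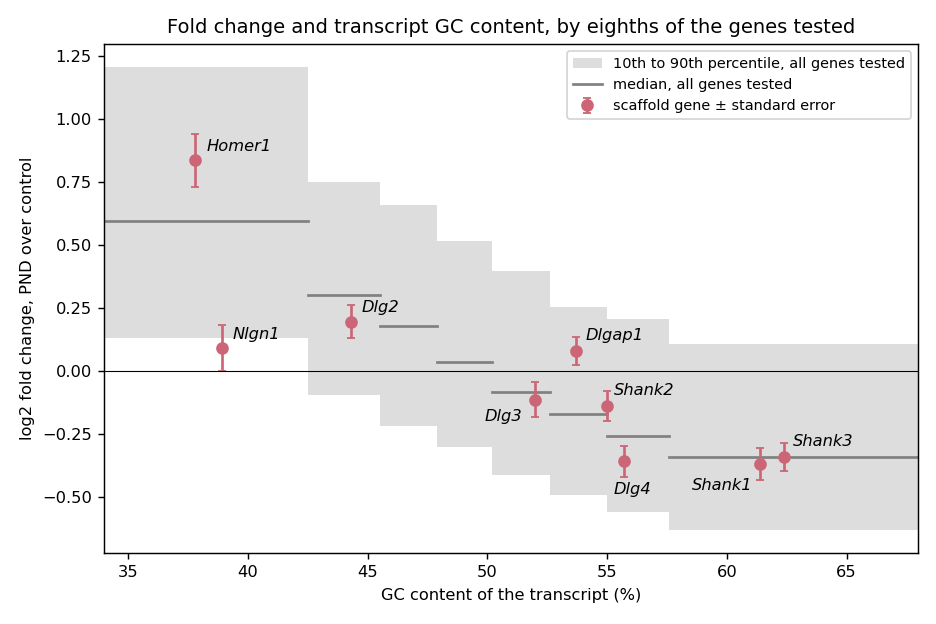
Log2 fold change of PND over control mice (vertical axis) against the GC content of the transcript in percent (horizontal axis). Red points are the 9 scaffold genes with standard errors, and grey steps and bands are the median and the 10th to 90th percentile of all genes tested in each eighth of GC content (outer eighths drawn in part). Medians descend from 0.60 to -0.34, Shank1 and Shank3 sit at the median of their eighth, and Nlgn1 lies under the band of its own.

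When library-wise trends of the counts with length and GC content of the transcript were fitted and taken out, with condition still the only term, none of the 4 calls remained. Over all genes tested, 0.787% were then higher and 2.79% lower, in place of 13.1% and 12.8%. Homer1 then had a log2 fold change of 0.02 ± 0.14 (adjusted p = 0.95), Shank3 of -0.05 ± 0.07 (adjusted p = 0.75), Shank1 of -0.08 ± 0.08 (adjusted p = 0.59) and Dlg4 of -0.21 ± 0.08 (adjusted p = 0.18). Nlgn1 turned from 0.09 to -0.62 ± 0.08 and passed the test as lower in PND mice (adjusted p = 0.029). Dlg2 turned from 0.20 to -0.16 ± 0.07 (adjusted p = 0.19), while Dlgap1 stood at 0.16 ± 0.07 (adjusted p = 0.19). At an unadjusted p under 0.05, Dlgap1 was higher and Dlg2, Dlg4 and Nlgn1 were lower in this fit.

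Dlg4 thus kept more than its SE of the fall without passing, and the values of Homer1, Shank1 and Shank3 shrank to about their SE or less. The GC trend and the mitochondrial share of the counts differed between the groups together with the scaffold genes, and with 2 mice a group their parts cannot be told apart.

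**Figure D4:**
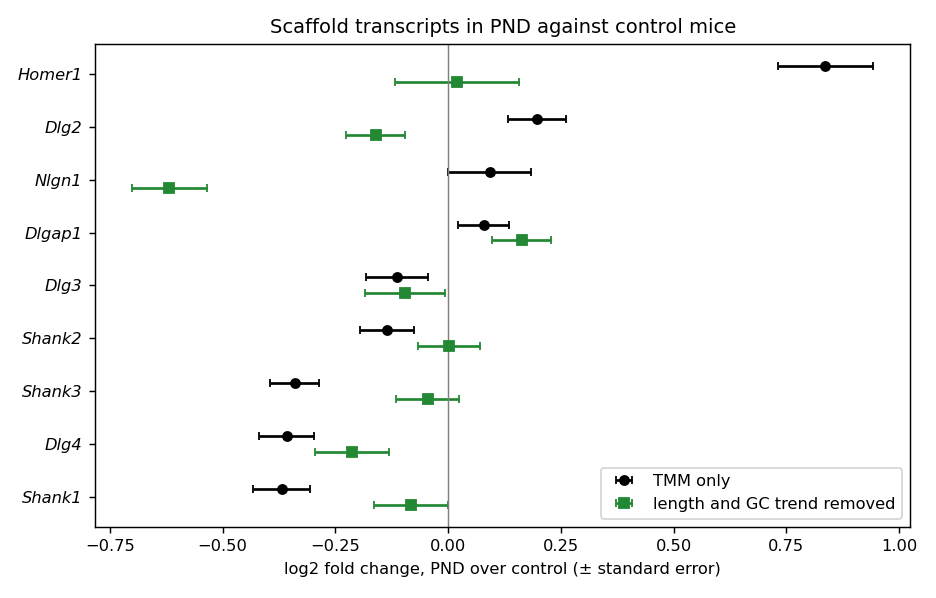
Log2 fold change of PND over control mice with its standard error (horizontal axis) for the 9 scaffold genes, ordered by value. Black circles are scaled by TMM only, and green squares have the length and GC trend of each library removed. Homer1 goes from 0.84 to 0.02, the falls of Shank1 and Shank3 shrink to -0.08 and -0.05, and Nlgn1 goes from 0.09 to -0.62.

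The other genes of the postsynaptic side were read from lists of paralogs, partners, receptors, adhesion proteins, inhibitory scaffold and calcium channels. Of 96 such genes tested, 20 (20.8%) rose and 31 (32.3%) fell, against 13.1% and 12.8% of all genes tested. Their median log2 fold change was -0.07. Counts of the single lists below have the same background. Of the 24 with a transcript in the lowest 2 eighths of GC content, 14 rose and 0 fell by edgeR (0 lower at an unadjusted p under 0.05 or by DESeq2), while over all genes there 39.6% rose and 0.537% fell. Of the 33 in the highest 2 eighths, 0 rose (0 higher at an unadjusted p under 0.05 or by DESeq2) and 23 fell, while over all genes there 0.631% rose and 32.9% fell. Of the 39 in the middle 4 eighths, 6 rose and 8 fell, while over all genes there 6.10% rose and 8.96% fell. Among the outer eighths the direction thus followed GC content in this larger group too. The counts of the 96 genes depended on single mice, with 12 risers and 24 fallers without control mouse 2, and 12 and 19 without PND mouse 2. With library totals only they were 25 and 25.

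Partners and enzymes of the density gave 4 risers and 15 fallers among 30, with a median of -0.21. Lin7c, a PDZ adaptor that binds Dlg complexes, rose from 58.5 and 54.6 CPM to 107 and 112 CPM (log2 fold change 0.95 ± 0.07, adjusted p = 0.004). Cript, which binds a PDZ domain of PSD-95, rose by 0.38 ± 0.09 (adjusted p = 0.028). Agap2, whose long form PIKE-L binds Homer, fell from 1820 and 1663 CPM to 1278 and 1200 CPM (-0.49 ± 0.07, adjusted p = 0.0063). Iqsec1, an exchange factor for Arf GTPases at the density, fell by 0.49 ± 0.06 on the log2 scale (adjusted p = 0.005).

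Of 14 genes of glutamate receptors and their auxiliary subunits, 3 rose and 5 fell. Grm5, the group I metabotropic receptor that Homer binds, rose from 209 and 193 CPM to 278 and 299 CPM (log2 fold change 0.52 ± 0.07, adjusted p = 0.0055). Gria2, the AMPA receptor subunit that limits calcium entry, rose from 752 and 686 CPM to 976 and 1055 CPM (0.50 ± 0.07, adjusted p = 0.0063). Grin1, the obligatory NMDA receptor subunit, fell from 503 and 505 CPM to 358 and 331 CPM (-0.55 ± 0.06, adjusted p = 0.0045). Grin2d, a further NMDA receptor subunit, fell by 0.59 ± 0.11 on the log2 scale (adjusted p = 0.013). Receptors that the scaffolds hold thus moved both ways in this fit. With the length and GC trend taken out, Grm5 kept its direction and Gria2 reversed to -0.40, as given below, and Grin1 and Grin2d were not called.

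Of 10 calcium store partners of Homer, none rose and 1 fell by edgeR. The faller was Itpr1, the IP3 receptor of the endoplasmic reticulum, at 431 and 463 CPM in control mice and 329 and 362 CPM in PND mice (log2 fold change -0.37 ± 0.07, adjusted p = 0.013). At an unadjusted p under 0.05, 1 of the 10 was higher and 2 lower, and DESeq2 called 0 higher and 1 lower.

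Of 24 synaptic adhesion genes, 6 rose and 4 fell. Lrrtm4 (log2 fold change 0.95 ± 0.15, adjusted p = 0.0075) and Slitrk4 (0.86 ± 0.10, adjusted p = 0.0046), postsynaptic adhesion proteins, rose furthest. The presynaptic adhesion proteins Ptprs (-0.46 ± 0.06, adjusted p = 0.0052) and Nrxn2 (-0.44 ± 0.06, adjusted p = 0.0053) fell furthest. Of 11 genes of the inhibitory postsynaptic side, 5 rose and 3 fell. Dmd, which encodes dystrophin, rose most (0.66 ± 0.09, adjusted p = 0.0059). 6030419C18Rik, known as Insyn1, fell most (-0.47 ± 0.07, adjusted p = 0.0064), followed by Nlgn2. Opposite directions within a list were therefore not particular to the excitatory scaffold.

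With the length and GC trend taken out and condition as the only term, 1 of the 96 genes was higher and 3 were lower, near the 0.787% and 2.79% of all genes. These genes, named because of this count, were Grm5 (log2 fold change 0.43 ± 0.08, adjusted p = 0.037), Itpr1 (-0.46 ± 0.07, adjusted p = 0.033), Gria2 (-0.40 ± 0.07, adjusted p = 0.036) and Slitrk3 (-0.36 ± 0.07, adjusted p = 0.050 as rounded). Grm5, Itpr1 and Slitrk3 kept their direction. Gria2 reversed from 0.50, as Nlgn1 did.

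Cell markers were compared beside these results. Summed levels were 7060 to 7200 CPM in control mice and 6830 to 7150 in PND mice for neuronal markers, 4640 to 4700 and 4760 to 5000 for astrocyte markers, and 250 to 259 and 252 to 259 for microglial markers. Oligodendrocyte markers summed to 5470 to 6330 and 4030 to 6220, and endothelial markers to 228 to 239 and 247 to 337. Of these 5 sums, those of astrocytes and endothelial cells lay higher in the PND mice without overlap, and the others overlapped. The astrocyte sum does not stand for each of its genes. Of the 8 astrocyte markers, 3 rose and 2 fell, while 13.1% of all genes tested rose and 12.8% fell. Slc1a2, the most abundant, rose from a mean of 2220 to 2700 CPM, and Aldoc fell from 1160 to 819 CPM. Of the 9 neuronal markers, 2 rose and 2 fell. By edgeR, 2 of the 7 microglial and 2 of the 7 endothelial markers rose and none fell, and no oligodendrocyte marker was called. Of the 7 markers of hippocampal excitatory neurons 2 rose and 2 fell. Their log2 fold changes were split, from -0.70 to 0.53, with a median of -0.39. No marker of any list was at 0 in a library. The part of these differences in the results on the scaffold genes was not tested.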

How the data were processed

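Hippocampal RNA of 2 control and 2 PND mice, separate animals, was sequenced. Reads were mapped by the authors to mm10, and the deposited counts are reads per gene without normalization. The submitters' processing notes name HISAT2 2.1.0, Bowtie2 2.2.3, TopHat2 and HTSeq 0.6.0. The table also holds columns of the authors' comparison (scaled mean, fold change, log2 fold change, p-values, mark of significance), which were not used.

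Counts were filtered with filterByExpr (minimum count 10), scaled by TMM and tested in edgeR 4.0.16 (R 4.3.3) by the quasi-likelihood F test, with condition as the only term and Benjamini-Hochberg adjustment over 17144 genes. A standard error is the size of the log2 fold change over the root of its F value. A gene was called at an adjusted p of 0.05. DESeq2 1.42.0 was an alternative. GC content and length are those of the GENCODE M21 transcript with the longest coding sequence, and RPKM was computed with that length. Library trends with both were fitted with mgcv 1.9.3 (basis size 8) and used as offsets. Procedures were tested on simulated data. The fit shares information on dispersion between genes, so a standard error does not measure the spread of the 2 mice a group alone. As a check for repeated libraries, replicates were compared by chi-square, and neither pair agreed within sampling noise (12.3 and 7.77 per degree of freedom).

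The members and lists were chosen with earlier results of these data known. Genes named are the 9 scaffold genes, their 8 paralogs, and from each other list on the postsynaptic side the 2 highest and 2 lowest log2 fold changes among genes called, with exceptions stated. One gene that this rule names is not reported here. Arc was added after its values were seen. Nuclear-retained RNAs and markers of striatum and thalamus were also read.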

Additional observations from a re-analysis of the deposited data

How the results depend on the processing

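Over 14 alternatives, the 9 fold changes kept direction and side of the threshold in 97 of 126 values, lost the call in 11, gained one without a change of direction in 6 and reversed in 12, of which 3, all of Nlgn1, also became calls. In the reported test 1 scaffold gene rose. With library totals only, DESeq2, a minimum of 1 CPM in every library or the replicate block it was 2, as Dlg2 joined, and with the GC offset or the length and GC offset it was 0 (1, Dlgap1, at an unadjusted p under 0.05). The fallers went from 3 to 1 (Nlgn1) with either of these offsets, to 4 with the length offset (Shank2 joined, adjusted p = 0.015) and to 0 with the fold limits. With the replicate block and both offsets, Dlgap1 was higher (0.16, adjusted p = 0.044), and Dlg4 (-0.21, adjusted p = 0.016) and Nlgn1 (adjusted p = 0.0023) were lower. Of the 96 other postsynaptic genes, 5 were then higher and 23 lower, against 1 and 3 with both offsets alone, 11 and 43 with the length offset, 25 and 25 with library totals only, and 12 to 19 and 19 to 30 with 1 mouse left out. The median of -0.11 became -0.066 with library totals only and -0.28 with the length offset, and lay between -0.16 and -0.055 with 1 mouse left out. Dlg2 reversed with the GC offset (-0.17), the length offset (-0.004), both (-0.16) and both with the replicate block (-0.16). Nlgn1 reversed with the GC offset (-0.63), the length offset (-0.15), both (-0.62), both with the replicate block (-0.62) and without PND replicate 2 (-0.017, against up to 0.18 without PND replicate 1). Dlgap1 reversed with the length offset (-0.082), and Shank2 with both offsets (0.002) and both with the replicate block (0.0014). The replicate block alone raised the calls over all genes from 2249 higher and 2201 lower to 2653 and 2626. Deviations of same-numbered mice correlated at 0.224, and the mice share only a number. Calls were 159 and 621 with the GC offset, 1376 and 3245 with the length offset, 135 and 479 with both, 647 and 2268 with both and the block, 1315 and 1350 without a filter, and 1201 and 1207 without control replicate 2, 1586 and 1347 without PND replicate 2. Causes beyond the offsets' own construction were not tested.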

Other observations

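RNAs retained in the nucleus were read as a group beside the scaffold genes. Of 7 such RNAs, 3 rose and 1 fell, with a median log2 fold change of 0.31. Of all genes tested, 13.1% rose and 12.8% fell. Malat1 had 575 and 425 CPM in control mice and 678 and 911 CPM in PND mice (log2 fold change 0.67 ± 0.18, edgeR adjusted p = 0.037). Snhg11 rose from 1674 and 1632 CPM to 2342 and 2697 CPM (0.61 ± 0.08, edgeR adjusted p = 0.0055), and Rian rose by 0.31 ± 0.06 (edgeR adjusted p = 0.016). Miat fell by 0.30 ± 0.06 on the log2 scale (edgeR adjusted p = 0.014). The GC content was 42.5% for Malat1, 44.8% for Snhg11 and 35.8% for Rian, in the lowest 2 eighths, where 39.6% of all genes rose. Miat, at 55.1%, was in the highest 2 eighths, where 32.9% of all genes fell.

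Markers of other brain regions were read in every mouse. Striatal markers summed to 79.2 and 114 CPM in control mice and 81.9 and 85.7 CPM in PND mice, and thalamic markers to 128 and 124 CPM in control mice and 148 and 143 CPM in PND mice, higher in both PND mice. By edgeR none of the 6 striatal and none of the 6 thalamic markers was called, with 2 thalamic markers higher at an unadjusted p under 0.05 and 0 called by DESeq2.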
